A study of Mus musculus with 6 samples.

Results

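The heme biosynthesis enzymes were followed in granulocyte/macrophage progenitors (GMPs), the bone marrow precursors of granulocytes and monocytes. The 8 member genes were Alas1, Alas2, Alad, Uros, Urod, Cpox, Ppox and Fech, out of 13267 genes with a usable probe set. Every probe set whose gene symbol was one of these names was taken, which gave 19 probe sets, each a group of short probes that reports 1 transcript or part of it. The cells came from 3 kinds of BL6 mice: mice lacking IRF4 and IRF8 (IRF4/8DKO), mice lacking IRF8 alone (IRF8KO) and wild-type mice (WT). IRF8 and IRF4 belong to the interferon regulatory factors, which bind DNA and control transcription in blood cells. Both knockout genotypes lack IRF8, and the sources used here do not say how each allele was made. Each genotype had 2 Affymetrix mouse gene expression arrays, from 1 male and 1 female mouse. The IRF4/8DKO mice were 16 weeks old, the IRF8KO mice 12 (female) and 22 weeks (male), and the WT mice 12 (male) and 19 weeks (female). Replicate 1 was the female in IRF8KO, whereas in IRF4/8DKO and WT it was the male.

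Heme is an iron-containing ring that cells build from glycine and succinyl-CoA in a chain of steps that begins and ends in the mitochondrion. ALAS carries out the first, rate-limiting step and exists as a form made in all cells (Alas1) and an erythroid form (Alas2). Red cell precursors need heme for hemoglobin. Other cells need less of it, and in granulocyte precursors it is the prosthetic group of myeloperoxidase and of the cytochrome of the phagocyte oxidase.

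The arrays are described first by facts that hold for all genes. Median intensity per array was 37.5 and 34.1 in IRF4/8DKO, 38.6 and 38.4 in IRF8KO, and 45.3 and 41.7 in WT. Intensities are linear values that the authors normalized and computed with dChip. Across all probe sets, the correlation of log2 values between both mice of a genotype was r = 0.967 in IRF4/8DKO, 0.938 in IRF8KO and 0.977 in WT, so the IRF8KO arrays were the least alike. The targeted genes did not read lower in the knockouts on all of their probe sets. Of 2 Irf8 probe sets, 1 read 934 and 1900 in IRF4/8DKO, 1333 and 1131 in IRF8KO, and 507 and 704 in WT, so that all 4 knockout arrays lay above both WT arrays. The other read 2611 and 4778 in IRF4/8DKO, 3811 and 2602 in IRF8KO, and 2588 and 3052 in WT, with overlap. Of 2 Irf4 probe sets, 1 read 66.0 and 54.6 in IRF4/8DKO, 13.8 and 7.66 in IRF8KO, and 32.1 and 23.5 in WT, highest in the mice labelled as lacking IRF4. The other read 11.8 and 20.2 in IRF4/8DKO, 29.7 and 14.1 in IRF8KO, and 33.1 and 16.8 in WT, with overlap. The sources used here do not place these probe sets relative to the deleted part, and they therefore do not check the labels. The labelled cell type matched its genes: the granule enzyme genes Mpo, Elane, Prtn3 and Ctsg read 4983 or more on each of the 6 arrays, and Kit read 1680 to 2426. Among the genes of the sort gate, Fcgr3 read 2516 and 5863 in IRF4/8DKO, 2618 and 6315 in IRF8KO, and 1090 and 1259 in WT. Cd34 read 590 and 509 in IRF4/8DKO, 440 and 669 in IRF8KO, and 1747 and 1401 in WT. Neither passed the test in a comparison (limma adjusted p from 0.0998 for Cd34 in both knockout genotypes together).

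None of the heme enzyme genes changed past the threshold. Of the 19 probe sets, 16 passed the filter on low values, with at least 1 probe set for each of the 8 genes. For IRF4/8DKO against WT, 0 of 16 were called by limma (Benjamini-Hochberg adjusted p under 0.05 over all probe sets), where 0.299% of all tested probe sets were called. In IRF8KO against WT it was also 0, with 0.0302% of all probe sets called. Between IRF4/8DKO and IRF8KO neither a member nor any other probe set was called (0%). Both knockout genotypes together against WT, the comparison with most arrays, again gave 0 members, with 0.601% of all probe sets called. At an unadjusted p under 0.05 there were 2 members in IRF4/8DKO against WT (9.05% of all probe sets), 0 in IRF8KO against WT (13.5%), 1 in IRF4/8DKO against IRF8KO (8.52%) and 2 in both together (11.6%). Each comparison with WT uses the same pair of WT arrays.

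The precision of 2 arrays per genotype limits what a missed threshold means. For the representative probe sets, taken as the kept one with the highest mean per gene, the 95% intervals of the log2 fold change reached 0.73 to 1.44 to each side of the estimate between single genotypes, and 0.63 to 1.24 for both knockout genotypes against WT. Fold changes are on the log2(intensity + 10.5) scale, which understates changes of low values. All limma values below come from 1 fit of the 3 genotypes, and errors are its standard errors (SE).

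**Figure D1:**
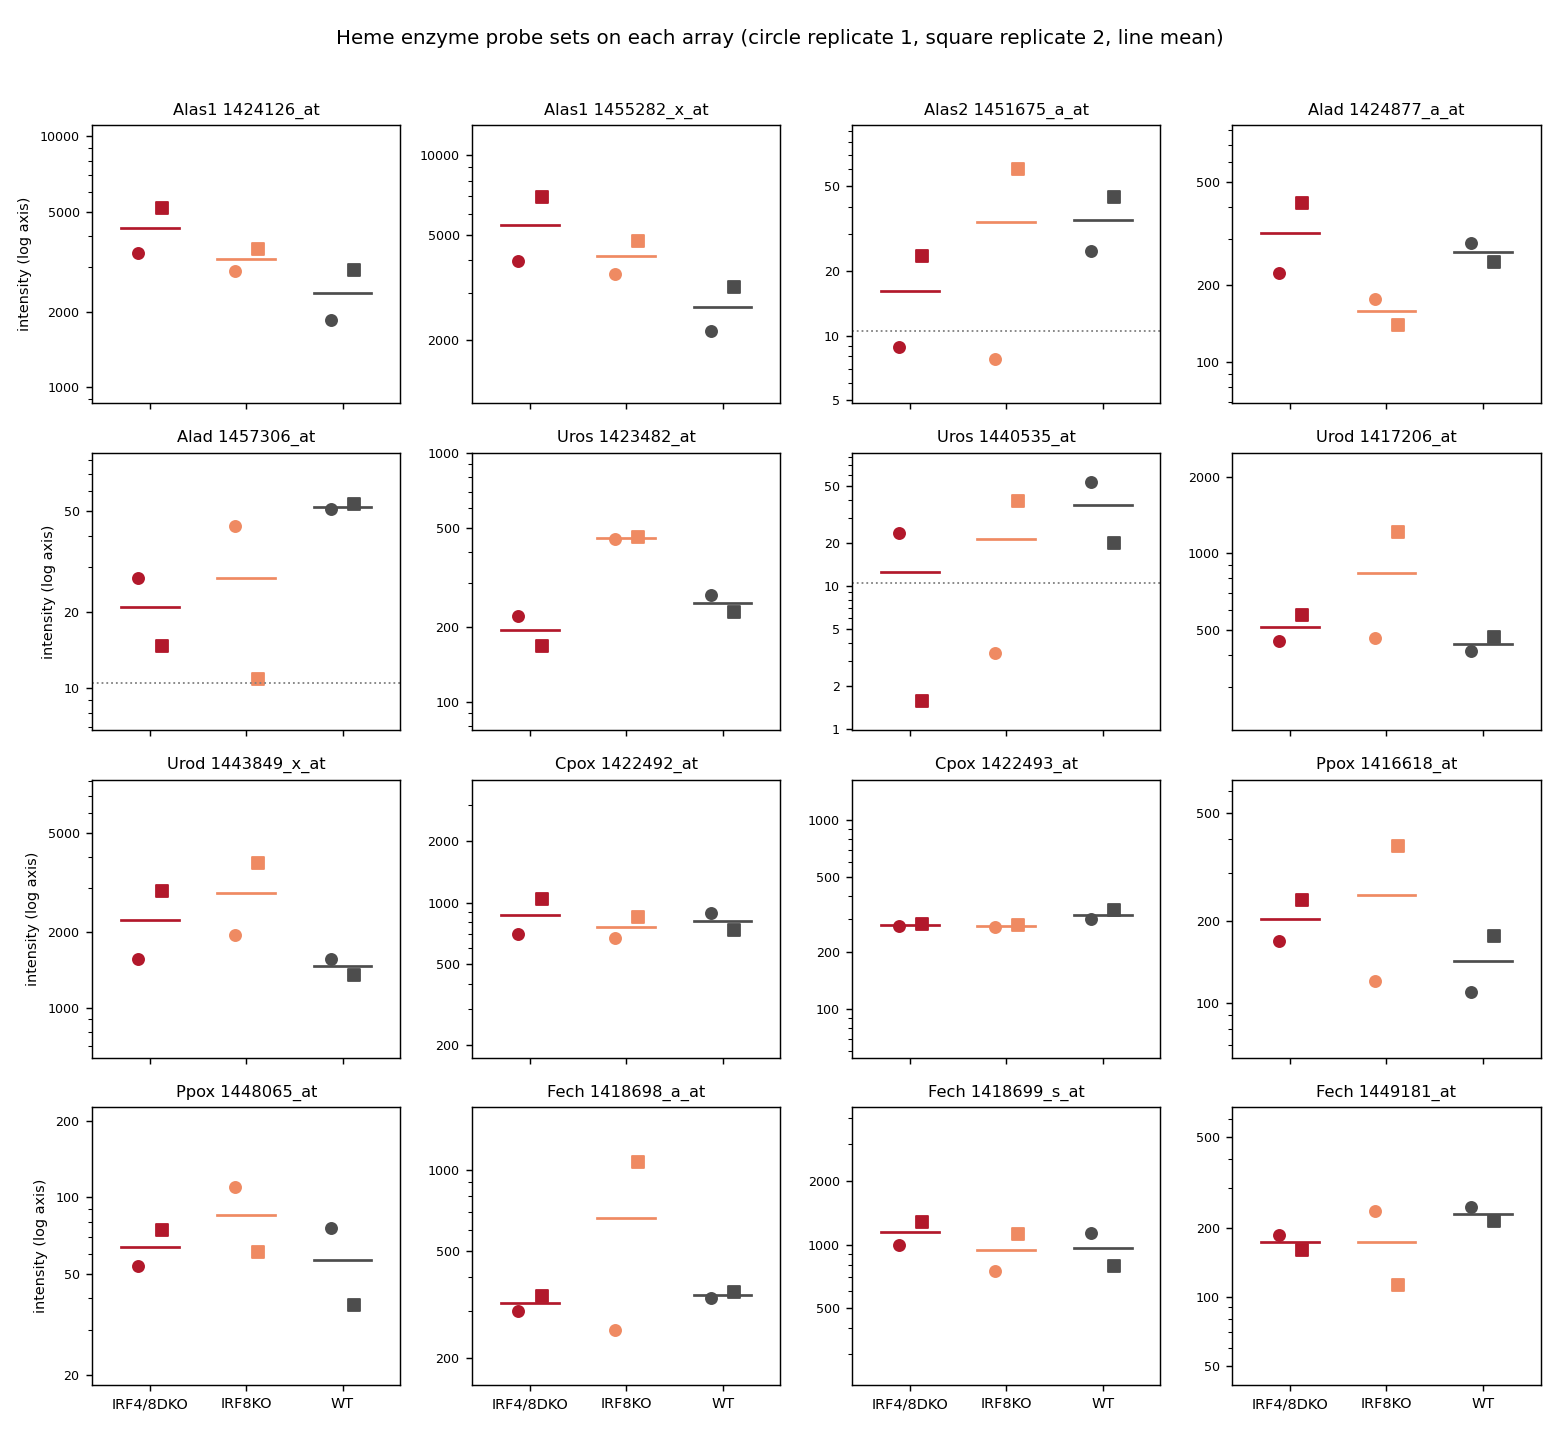
Intensity (log axis) of the 16 heme enzyme probe sets that passed the filter, on each of the 6 arrays, with replicate 1 as a circle, replicate 2 as a square and the mean as a line. A dotted line marks 10.5, the value added before taking logs, where it falls in the panel. Alas1 lies higher on the IRF4/8DKO arrays than on the WT arrays in both of its panels, and most panels show overlapping genotypes.

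The region just before the transcription start is shown for the 2 ALAS genes, which differ most in the cells that use them, and for Cpox and Ppox, because a searched motif lay there. Each sequence is the 250 bases before the start, 5′ to 3′ on the strand of the gene, from RefSeq with build GRCm38.p6. Of the 8 genes, 7 matched an entry, with 10 windows in all. The windows printed are chr9:106247955-106248204 (minus strand) for Alas1, chrX:150547167-150547416 (plus) for Alas2, chr16:58669958-58670207 (plus) for Cpox and chr1:171281187-171281436 (minus) for Ppox. Capitals mark GATAA, the core bound by GATA factors, and the IRF repeat (GAAA, any 2 bases, GAAA), both searched on both strands. The composite element of PU.1 with an IRF (GGAA, any 2 bases, GAAA) was searched in the same way, and its matches may overlap those of the IRF repeat.
Alas1: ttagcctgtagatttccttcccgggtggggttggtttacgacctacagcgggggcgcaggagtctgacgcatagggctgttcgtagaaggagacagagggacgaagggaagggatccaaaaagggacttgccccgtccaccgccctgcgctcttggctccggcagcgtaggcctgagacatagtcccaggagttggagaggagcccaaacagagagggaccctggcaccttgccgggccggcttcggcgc
Alas2: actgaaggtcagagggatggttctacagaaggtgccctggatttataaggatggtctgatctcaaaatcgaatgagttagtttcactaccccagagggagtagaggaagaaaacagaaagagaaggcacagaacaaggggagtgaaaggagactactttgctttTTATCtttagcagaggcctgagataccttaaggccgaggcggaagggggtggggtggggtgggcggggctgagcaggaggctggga
Cpox: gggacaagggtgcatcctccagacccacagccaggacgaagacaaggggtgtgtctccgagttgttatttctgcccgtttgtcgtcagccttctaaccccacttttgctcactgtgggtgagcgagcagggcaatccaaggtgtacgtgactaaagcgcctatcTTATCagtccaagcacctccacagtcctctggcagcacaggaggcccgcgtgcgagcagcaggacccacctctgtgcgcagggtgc
Ppox: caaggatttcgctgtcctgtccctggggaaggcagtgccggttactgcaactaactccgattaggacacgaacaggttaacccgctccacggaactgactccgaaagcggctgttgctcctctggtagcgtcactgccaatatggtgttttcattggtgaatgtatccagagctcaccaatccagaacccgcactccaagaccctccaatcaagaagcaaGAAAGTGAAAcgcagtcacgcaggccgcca
GATAA stood once in the windows of Alas2 and Cpox, beginning 86 bases before the start in each, and once before the second start of Uros, all on the opposite strand, where it reads TTATC in the lines above. It was thus found in 3 of the 10 windows, against 22.6% of 32851 windows of the same length in the table. The IRF repeat was found in the Ppox window alone, beginning 30 bases before the start, and in 2.98% of all windows. The composite element was found in none of the 10 and in 2.30% of all windows. The Alas1 window printed held none of the 3 motifs. By the same annotation the Alas1 window overlaps the lncRNA gene 4930500F10Rik, and the Alas2 window lies within the span of Apex2 and overlaps Mir3620. These are matches of letters, and binding was not measured.

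Alas1, the ALAS form of all cells, had the highest values in IRF4/8DKO and the lowest in WT. Its representative probe set, 1455282_x_at, read 3964 and 6928 in IRF4/8DKO, 3560 and 4757 in IRF8KO, and 2169 and 3161 in WT. All 4 arrays of IRF8-deficient mice thus lay above both WT arrays, and the 2 knockout genotypes overlapped. The x in its name marks a set in which some probes can also match other transcripts. The second probe set, 1424126_at, read 3424 and 5192 in IRF4/8DKO, 2901 and 3565 in IRF8KO, and 1844 and 2919 in WT. Here 1 IRF8KO array lay just below the higher WT array. The log2 fold change of the representative set was 0.998 ± 0.32 (SE, n = 2 and 2) in IRF4/8DKO against WT (limma adjusted p = 0.358), 0.65 ± 0.32 in IRF8KO against WT (0.419) and 0.35 ± 0.32 in IRF4/8DKO against IRF8KO (0.775). In both knockout genotypes together it was 0.82 ± 0.28 (95% interval 0.19 to 1.46, limma adjusted p = 0.288, n = 4 and 2), and 0.66 ± 0.27 by the second set (0.384). An exact two-sided permutation test over the 6 arrays, on the mean log2 value of both sets, gave a difference of 0.744 and p = 0.133, where the smallest p this design allows is 0.0667. Within the male mice the representative set lay 0.87 (IRF4/8DKO) and 1.13 (IRF8KO) above WT on the log2 scale, and within the female mice 1.13 and 0.17. By this set Alas1 was higher on 4 of 4 knockout arrays than on the WT array of the same sex. That follows from all 4 lying above both WT arrays and is no further support. By the second set the female IRF8KO array lay at -0.01, so 3 of 4 were higher.

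Alas2, the erythroid ALAS form, was at the low end of the range of the arrays. Its 1 probe set, 1451675_a_at, read 8.87 and 23.6 in IRF4/8DKO, 7.78 and 60.1 in IRF8KO, and 24.95 and 44.5 in WT. On 3 of the 6 arrays it exceeded the 40th percentile of all probe sets, which was 19.4 to 25.9. Both IRF4/8DKO arrays lay below both WT arrays, and the IRF8KO arrays held the lowest and the highest value of the 6. The log2 fold change was -0.78 ± 0.63 in IRF4/8DKO against WT (95% interval -2.22 to 0.66, limma adjusted p = 0.805) and -0.30 ± 0.63 in IRF8KO against WT (0.876). Without IRF8KO replicate 1 the IRF8KO value was 0.68, on the other side of 0.

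Alad makes porphobilinogen, the pyrrole unit of the ring, and its probe sets differed. The representative set, 1424877_a_at, read 222 and 416 in IRF4/8DKO, 176 and 139 in IRF8KO, and 290 and 246 in WT. Both IRF8KO arrays lay below the other 4 arrays. The log2 fold change was -0.74 ± 0.46 in IRF8KO against WT (limma adjusted p = 0.531), 0.18 ± 0.46 in IRF4/8DKO against WT (0.949) and 0.92 ± 0.46 in IRF4/8DKO against IRF8KO (0.618). The other set, 1457306_at, was dimmer and read 27.3 and 14.6 in IRF4/8DKO, 43.7 and 10.9 in IRF8KO, and 51.1 and 53.4 in WT. By that set both knockout genotypes lay below WT on all arrays, with a log2 fold change of -0.95 ± 0.43 for the 2 together (limma adjusted p = 0.447), so the direction in IRF4/8DKO depended on the probe set.

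Uros, which closes the ring as uroporphyrinogen III, gave the largest difference between the knockout genotypes among the representative probe sets. Its set 1423482_at read 220 and 167 in IRF4/8DKO, 451 and 461 in IRF8KO, and 269 and 229 in WT. Both IRF8KO arrays were above all others, and both IRF4/8DKO arrays were below all others. The log2 fold change was -1.20 ± 0.41 in IRF4/8DKO against IRF8KO (95% interval -2.13 to -0.27, limma unadjusted p = 0.0172, limma adjusted p = 0.548). It was 0.85 ± 0.41 in IRF8KO against WT (limma adjusted p = 0.411) and -0.35 ± 0.41 in IRF4/8DKO against WT (0.870). The same signs were seen within male and within female mice, and with each array left out in turn the IRF4/8DKO against IRF8KO value stayed between -1.39 and -1.02. These signs follow from the order of the arrays given above and are no further support. The second Uros set, 1440535_at, read 1.56 to 53.8 with all genotypes overlapping. Its log2 fold change in IRF8KO against WT had the opposite sign, -0.75 ± 0.71 (limma adjusted p = 0.689). This set had the largest spread of all 16 sets, with an SD of 0.97 on the log2 scale.

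Urod, which trims the side chains of the ring, lay highest on 1 IRF8KO array. Its representative set, 1443849_x_at, read 1564 and 2916 in IRF4/8DKO, 1949 and 3795 in IRF8KO, and 1569 and 1351 in WT. The IRF8KO arrays lay above both WT arrays, while IRF4/8DKO replicate 1 lay between them. The log2 fold change was 0.55 ± 0.41 in IRF4/8DKO against WT (limma adjusted p = 0.782) and 0.90 ± 0.41 in IRF8KO against WT (0.383). Its second set, 1417206_at, read 454 and 574 in IRF4/8DKO, 467 and 1217 in IRF8KO, and 414 and 472 in WT, so that IRF8KO replicate 2 stood apart from the other 5 arrays.

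Cpox, coproporphyrinogen oxidase, was the least variable member. Its set 1422493_at read 275 and 282 in IRF4/8DKO, 273 and 278 in IRF8KO, and 300 and 334 in WT, a range of 1.22-fold over the 6 arrays. All 4 knockout arrays lay slightly below both WT arrays, by -0.19 ± 0.35 on the log2 scale in both knockout genotypes together (limma adjusted p = 0.886). The representative set, 1422492_at, read 697 and 1041 in IRF4/8DKO, 666 and 845 in IRF8KO, and 885 and 730 in WT, with overlapping genotypes. For the 2 knockout genotypes together its log2 fold change was -0.01 with a 95% interval of -0.76 to 0.74, and the sign turned to 0.17 when the arrays were centred on their medians.

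Ppox and Fech carry out the last steps, the oxidation to protoporphyrin and the insertion of iron. Ppox set 1416618_at read 169 and 239 in IRF4/8DKO, 121 and 379 in IRF8KO, and 110 and 176 in WT, with overlap in each comparison. Its log2 fold change in both knockout genotypes together was 0.55 ± 0.50 (limma adjusted p = 0.743). Fech had 3 kept sets that gave different signs in each comparison. Set 1418699_s_at, the representative one, read 1001 and 1289 in IRF4/8DKO, 752 and 1129 in IRF8KO, and 1142 and 790 in WT, a log2 fold change of 0.11 ± 0.33 in both together (0.938). Set 1418698_a_at read 300 and 341 in IRF4/8DKO, 255 and 1069 in IRF8KO, and 335 and 351 in WT. IRF8KO replicate 2 again lay above the other 5 arrays. Set 1449181_at read 186 and 159 in IRF4/8DKO, 236 and 112 in IRF8KO, and 247 and 214 in WT, and was lowest on that same array. The 3 sets left out by the filter, 1 each of Cpox, Ppox and Fech, read 1.07 to 22.9 on all arrays.

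**Figure D2:**
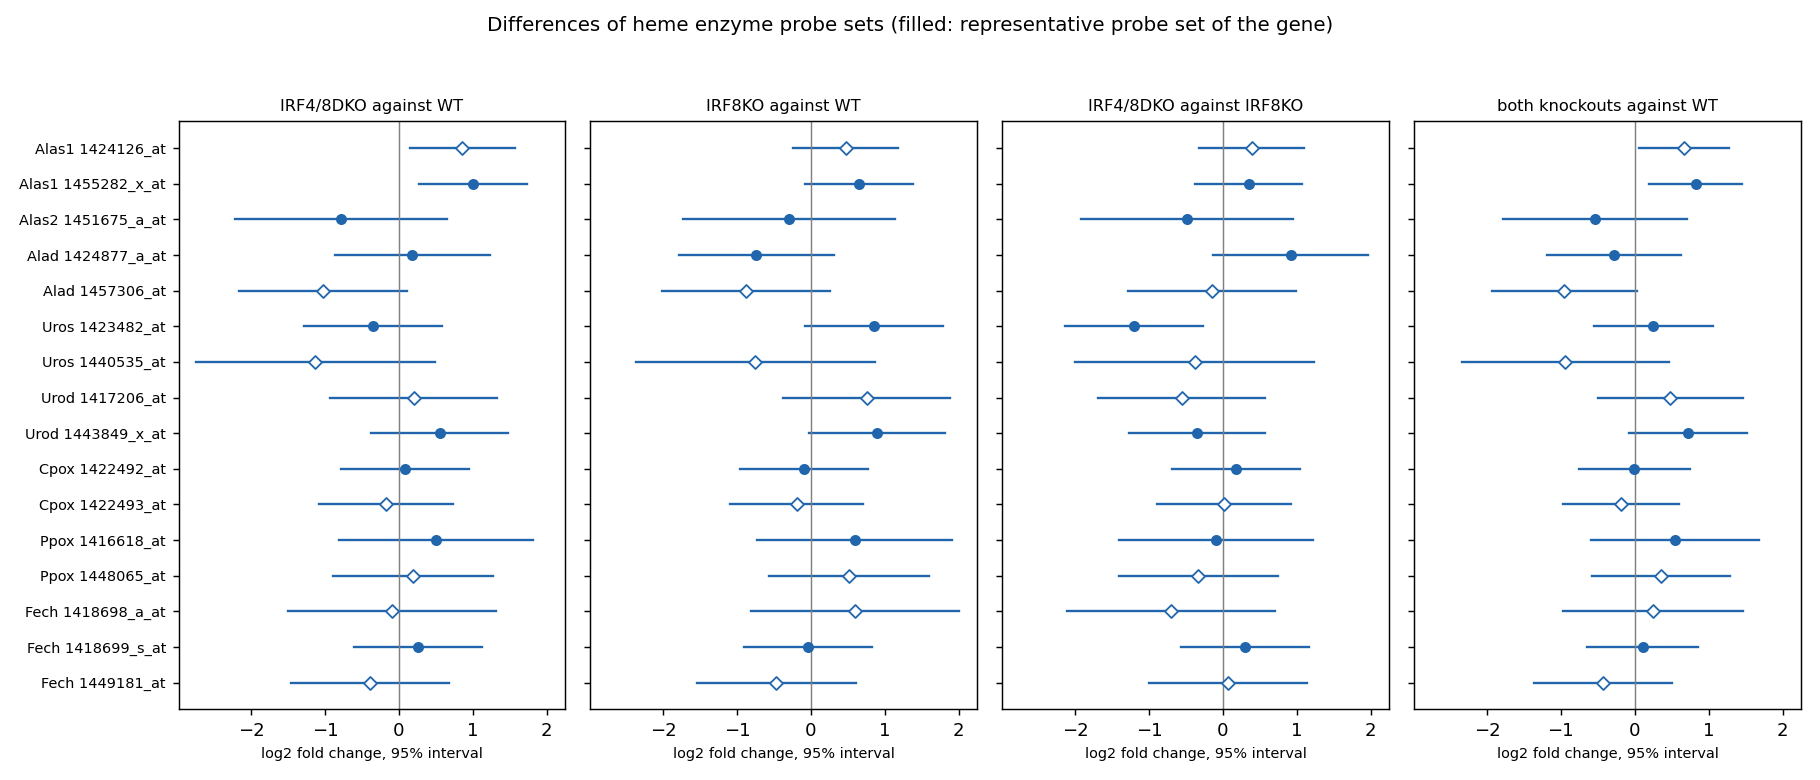
Log2 fold change with its 95% interval for the 16 kept heme enzyme probe sets in 4 comparisons, with filled circles for the representative set of a gene and open diamonds for its other sets. The intervals of both Alas1 sets lie above 0 in IRF4/8DKO against WT and in both knockouts against WT, that of 1 Uros set lies below 0 in IRF4/8DKO against IRF8KO, and none passes the adjusted test.

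By the representative probe sets, the pathway differed between arrays of 1 genotype. The representative probe set of all 8 genes was highest on IRF4/8DKO replicate 2 or on IRF8KO replicate 2, with 4 genes on each. Over all 13267 genes, 43.6% were highest on 1 of these 2 arrays (a count chosen after the values were seen). Each of the 2 also held the lowest representative value of 1 gene. The other probe sets followed less: of all 16 kept sets, 5 were highest on IRF4/8DKO replicate 2, 6 on IRF8KO replicate 2 and 4 on a WT array. The median of the 8 genes, set against the WT mean, was -0.04 and 0.53 on the log2 scale in IRF4/8DKO, -0.23 and 0.77 in IRF8KO, and 0.11 and -0.11 in WT. The replicate 2 arrays of both knockout genotypes, which were also those with the highest Fcgr3, thus lay above the other 4, which were between -0.23 and 0.11. Of the other genes positive in the sort gate, Fcgr2b was also highest on these 2 arrays, whereas Kit and Cd34 were not. The part of Fcgr3 or of the cells it marks was not tested. The median log2 fold change of the 8 genes was 0.22 in IRF4/8DKO against WT (0.03 over all genes), 0.27 in IRF8KO against WT (0.04), 0.04 in IRF4/8DKO against IRF8KO (-0.01) and 0.18 in both together (0.03). In IRF8KO against WT the median was 0.77 without IRF8KO replicate 1 and -0.23 without IRF8KO replicate 2, so its direction rested on 1 array. In IRF4/8DKO against IRF8KO it was -0.41 and 0.52 without the same arrays. The IRF4/8DKO against WT median was 0.53 without IRF4/8DKO replicate 1 and -0.04 without IRF4/8DKO replicate 2. For both knockout genotypes together it was -0.0030 without WT replicate 2, and up to 0.30 with another array left out.

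Groups that did not overlap were about as frequent among the heme enzymes as among all probe sets in IRF4/8DKO against WT. In that comparison the arrays were separate for 7 of 16 probe sets, against 43.6% of all probe sets. In IRF8KO against WT it was 6 of 16 against 45.7%, in IRF4/8DKO against IRF8KO 2 of 16 against 36.6%, and in both knockout genotypes against WT 3 of 16 against 21.0%. The 3 were Alas1 (higher) and the second sets of Alad and Cpox (lower). Of the 8 representative log2 fold changes, 3 lay between the quartiles of all genes in IRF4/8DKO against WT, 3 in IRF8KO against WT, 4 in IRF4/8DKO against IRF8KO and 3 in both together.

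**Figure D3:**
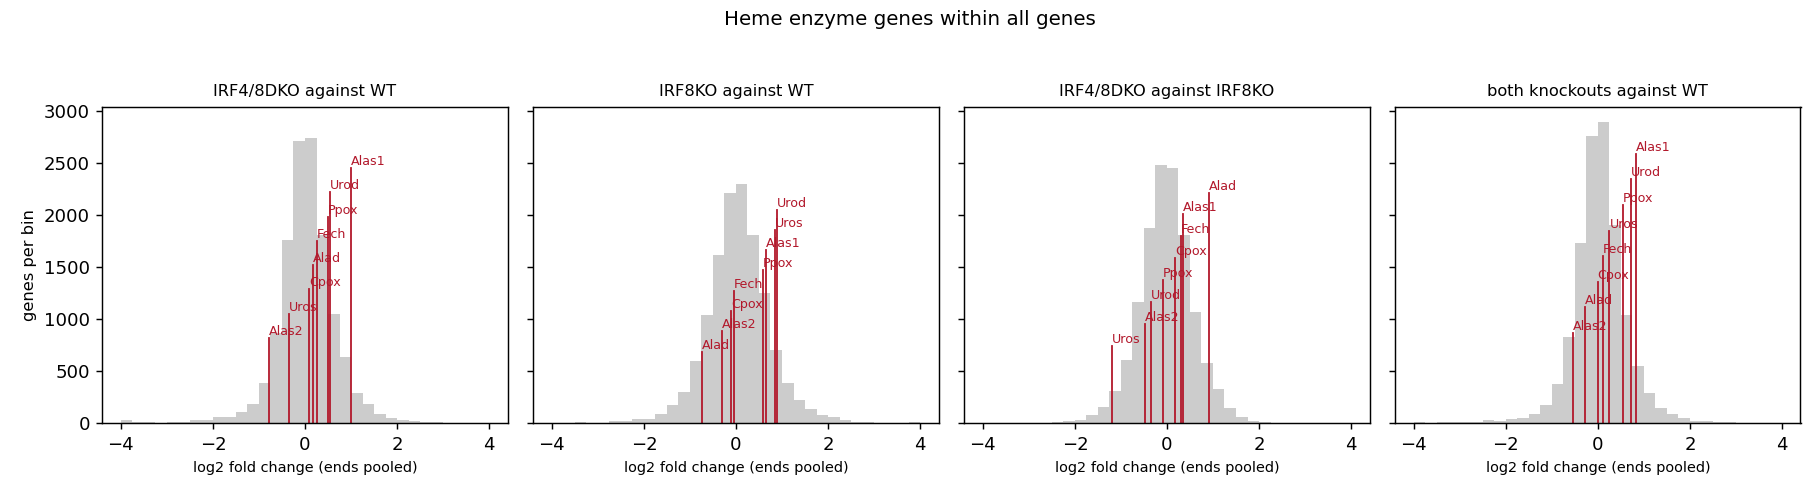
Number of genes per bin of log2 fold change (values beyond 4 placed in the end bins) for all 13267 genes in grey, with the 8 heme enzyme genes as labelled lines whose height only separates the labels. Between the quartiles of all genes lie 3 of the 8 in each comparison with WT and 4 in IRF4/8DKO against IRF8KO. Of the 8, Alas1 lies farthest to the right in both knockouts against WT, and Uros farthest to the left in IRF4/8DKO against IRF8KO.

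The genes around the pathway were examined next. Of 25 listed genes for heme and porphyrin transport and cofactors, 21 had a probe set in the tables used and 20 were kept, with 0 called in each comparison. Abcb10, a mitochondrial transporter of erythroid heme synthesis, read 2160 and 2835 in IRF4/8DKO, 2087 and 3008 in IRF8KO, and 1182 and 1818 in WT. The log2 fold change of Abcb10 in both knockout genotypes together was 0.76 ± 0.29 (limma adjusted p = 0.350), and 0.25 ± 0.45 by its other kept set (0.881). Slc48a1, a transporter that moves heme out of endosomes and lysosomes, read 1859 and 1827 in IRF4/8DKO, 1171 and 895 in IRF8KO, and 684 and 846 in WT. Its log2 fold change in IRF4/8DKO against WT was 1.27 ± 0.33 (limma adjusted p = 0.231), and 0.58 by its other kept set. Pgrmc1, a heme-binding protein that associates with Fech, read 765 and 412 in IRF4/8DKO, 445 and 520 in IRF8KO, and 1006 and 892 in WT, all knockout arrays below both WT arrays (log2 fold change -0.85 ± 0.36 in both together, limma adjusted p = 0.409).

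Heme breakdown and heme-responsive factors gave 0 calls among 11 kept genes in each comparison. Hebp1, a heme-binding protein, read 332 and 197 in IRF4/8DKO, 217 and 312 in IRF8KO, and 134 and 81.05 in WT (log2 fold change in both together 1.23 ± 0.41, limma adjusted p = 0.288). Blvra and Blvrb, the biliverdin reductases, had values of 0.86 ± 0.49 and -0.50 ± 0.41 on the same scale (0.564 and 0.705).

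Among 14 kept genes for iron uptake, storage and sensing, 1 was called, in the fit without sex as a block. Tfr2, transferrin receptor 2, read 12.3 and 11.1 in IRF4/8DKO, 93.1 and 14.9 in IRF8KO, and 1047 and 536 in WT. It fell in IRF4/8DKO against WT (log2 fold change -5.10 ± 0.66, limma adjusted p = 0.0285) and in both knockout genotypes against WT (-4.49 ± 0.57, 0.0247), and its other set passed in both comparisons (0.0443 and 0.0329). With sex as a block neither call held (limma adjusted p = 0.103 in IRF4/8DKO against WT and 0.0773 in both together). Tfrc, the transferrin receptor of most cells, which was named after its values were seen, read 3158 to 5942 on the 6 arrays with overlapping genotypes. Hfe, which modulates transferrin receptors, read 387 and 729 in IRF4/8DKO, 538 and 1201 in IRF8KO, and 152 and 212 in WT, a log2 fold change of 1.81 ± 0.46 in both together (limma adjusted p = 0.145). Its other kept set gave 1.24 ± 0.43 (limma adjusted p = 0.294), with knockout and WT arrays overlapping. In IRF4/8DKO against IRF8KO the 2 Hfe sets had opposite signs (-0.59 and 0.95). Fth1, the ferritin heavy chain, read 7972 to 9735 on the 6 arrays (log2 fold change -0.19 ± 0.12 in both together, limma adjusted p = 0.622). Its other set gave 0.17 ± 0.43.

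Some erythroid regulators and markers fell, by calls that did not hold with sex as a block, in comparisons in which no heme enzyme was called. Of 38 listed genes 31 had a probe set and 24 were kept. For IRF4/8DKO against WT, 2 were called lower and 0 higher, and in both knockout genotypes against WT 4 were lower and 0 higher, while IRF8KO against WT and IRF4/8DKO against IRF8KO gave 0. Median log2 fold changes of the 24 genes were -0.85 in IRF4/8DKO against WT, -1.08 in IRF8KO against WT and -1.05 in both together, beside 0.22, 0.27 and 0.18 for the 8 heme enzymes. Negative values were found for 16 of the 24 erythroid genes in IRF4/8DKO against WT, 21 in IRF8KO against WT and 21 in both together, and for 2, 4 and 3 of the 8 heme enzymes in the same comparisons. The heme enzyme medians changed sign with single arrays left out, as given above. Hba-a2, an alpha-globin gene named after its values were seen, read 3971 and 6018 in IRF4/8DKO, 1571 and 4320 in IRF8KO, and 3863 and 4534 in WT, with overlapping genotypes. The difference between the lists was not tested. In these sorted populations fewer erythroid-primed cells and less RNA per cell cannot be told apart.

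Gata1, the main erythroid transcription factor and a known activator of Alas2, read 2.64 and 4.98 in IRF4/8DKO, 13.1 and 1.62 in IRF8KO, and 282 and 61.1 in WT. It was called in both knockout genotypes together (log2 fold change -3.22 ± 0.56, limma adjusted p = 0.0475), as were Gata2 (-3.45 ± 0.51, 0.0329), the beta-globin gene Hbb-b2 (-3.17 ± 0.40, 0.0230) and the carbonic anhydrase gene Car2 (-4.05 ± 0.66, 0.0381). In IRF4/8DKO against WT the called genes were Gata2 (-4.60 ± 0.59, 0.0285) and Hbb-b2 (-3.84 ± 0.46, 0.0285). With sex as a block none of these calls held. The limma adjusted p was then 0.131 for Gata1, 0.0773 for Gata2 and Hbb-b2 and 0.125 for Car2 in both together, and 0.0774 for Gata2 and 0.0964 for Hbb-b2 in IRF4/8DKO against WT. A second Gata2 set, with values of -4.49 and -3.92 in the same 2 comparisons, did not pass (0.116 in IRF4/8DKO against WT and 0.0788 in both together). Where knockout values lay near or under 10.5, as for Gata1 and for Hbb-b2 in IRF4/8DKO, the added constant sets the size of the change. Reads of Hbb-b2 cannot be told from those of its near-identical beta-globin copies. A second Hbb-b2 set did not pass the filter and showed no fall. Its means were 2.76 in IRF4/8DKO, 1 in IRF8KO and 1.425 in WT, all near the lower end of the measured range. The call of Gata1 was lost without either IRF4/8DKO array (limma adjusted p = 0.115 and 0.185), and the set did not pass the filter without either WT array. The calls of Tfr2, Gata2, Hbb-b2 and Car2 were lost without either WT array or either IRF4/8DKO array (limma adjusted p from 0.0699 to 0.959).

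Markers of other cell types moved with genotype too. The summed intensity of 6 kept erythroid markers of 10 listed was 262 and 175 in IRF4/8DKO, 850 and 241 in IRF8KO, and 5302 and 2136 in WT. That of 3 kept megakaryocyte markers of 5 listed was 65.3 and 107 in IRF4/8DKO, 921 and 469 in IRF8KO, and 3045 and 765 in WT, and that of 5 mast cell and eosinophil markers 444 and 535, 3816 and 1419, and 10962 and 6969 in the same order. All 4 knockout arrays lay below both WT arrays in the erythroid and the mast cell and eosinophil sums, while in the megakaryocyte sum 1 IRF8KO array lay above the lower WT array. Car2, at 4116 and 1773, made up most of the erythroid sum in WT, and no globin gene was part of it. Of its 6 genes, Gata1, Epor and Car2 were lower on all knockout arrays, whereas Klf1, Slc4a1 and Car1 overlapped with WT. Of the mast cell and eosinophil markers 3 were called lower in IRF4/8DKO against WT and 3 in both knockout genotypes together, and of the megakaryocyte markers 1 in each. Of all tested probe sets, 0.299% and 0.601% were called in these comparisons. With sex as a block no probe set was called in IRF4/8DKO against WT, so the marker calls there did not hold. For both together, the marker calls with that block are not given here. The part of these markers in the enzyme values was not tested.

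**Figure D4:**
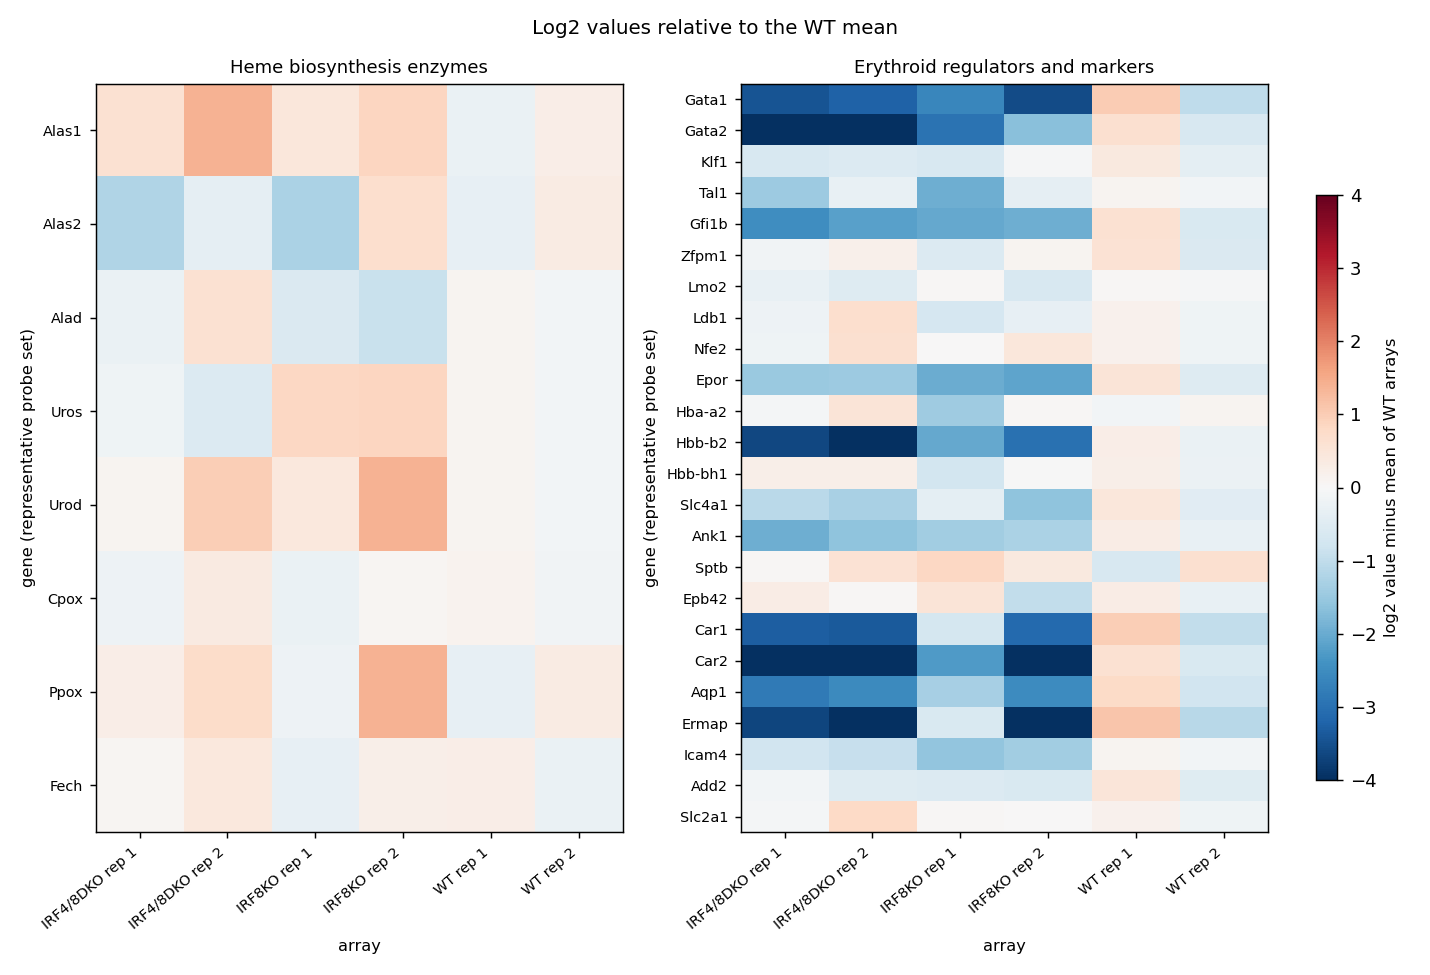
Log2 values relative to the mean of the 2 WT arrays for the 8 heme enzyme genes (left) and 24 erythroid regulators and markers (right), 1 column per array, with colours ending at 4 units in either direction. Gata1, Gata2, Hbb-b2 and Car2 lie below both WT arrays on all 4 knockout arrays, while most heme enzyme genes overlap WT.

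By a rule based on spread, the genes most like the most variable member set were sought. The second Uros set, 1440535_at, had the highest Pearson r over the 6 arrays with Fxyd2 (0.9675), Lpar2 (0.8994), Vasn (0.8981), 1700110I01Rik (0.8914) and 1700095A21Rik (0.866), among 942 genes with an SD of at least 1 on the log2 scale. These values come from 6 arrays of 3 genotypes and describe likeness only, for a probe set near the lower end of the measured range.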

How the data were processed

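RNA of sorted GMPs (10 ng per sample, per the labels' protocols) was hybridised to 6 one-colour arrays. The deposited values are linear intensity values per probe set, which the authors normalized and computed with dChip 1.3, per the labels and the submitters' processing notes; no depth applies, and the number of arrays limits the precision. Of 45037 probe sets, 34945 had 1 gene symbol in the platform annotation, 932 several and 9160 none, with symbols updated to RefSeq names. From the deposited intensity, log2(intensity + 10.5) was computed, 10.5 being the 25th percentile of all values. Probe sets above the 40th percentile of their array on at least 2 of 6 arrays were kept (29783; 15254 left out). limma 3.58.1 (R 4.3.3) was fitted to the 3 genotypes with a trend on mean level, and p-values were adjusted by Benjamini-Hochberg over all kept probe sets. The fit was tested on data simulated from its own estimate of the spread, with changes larger than those of any member. Sex and age had no part in these data, so the test does not cover their effects or smaller changes. Replicates are labelled as separate mice. The p-values of limma rest on the spread between these samples, combined with the spread of the other kept probe sets. The 2 mice of a genotype differ in sex, and in IRF8KO and WT also in age, so that spread includes these differences.

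The members and lists were chosen with earlier results of these data known. Named genes are the 8 members, genes of the 4 related lists (transport and cofactors, breakdown, iron, erythroid) past the threshold, the 3 of each list with the lowest p in both knockout genotypes against WT, and the 5 genes most like the most variable member set. The 3 erythroid genes of lowest p were also past the threshold. Alternatives changed the pseudocount, filter, scaling, trend, probe set rule, covariates and arrays used.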

Additional observations from a re-analysis of the deposited data

Results flagged for a closer look

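For 1 of the 16 kept probe sets, Ppox 1448065_at, the difference from WT had opposite signs in male and female mice in both knockout genotypes. On the log2 scale IRF4/8DKO minus WT was -0.43 in males and 0.81 in females, and IRF8KO minus WT was -0.28 in males and 1.31 in females. Each sex has 1 array per genotype, ages differ between them, and the difference between the sexes was not tested. The representative Ppox set did not show this pattern.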

How the results depend on the processing

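No heme enzyme probe set was called under any alternative run, and of 316 recomputed fold changes of the members 6 changed sign, all of small values. With median centring Cpox was 0.17 in both knockout genotypes together and 0.0407 in IRF8KO against WT, and Fech was 0.10 in IRF8KO against WT. With quantile normalization Cpox was -0.0095 in IRF4/8DKO against WT and Fech -0.0103 in both together, and with age as a covariate Ppox was 0.0425 in IRF4/8DKO against IRF8KO. The cause was not tested. Median centring moved the median of all genes by 0.221 in IRF4/8DKO against WT, 0.139 in IRF8KO against WT and 0.18 in both together.

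With an array left out, 23 of 192 values changed sign. In IRF4/8DKO against WT the ranges were -0.26 to 0.62 for Alad, -0.20 to 0.37 for Cpox and -0.0070 to 0.52 for Fech. In IRF8KO against WT they were -1.27 to 0.68 for Alas2, -0.27 to 0.0706 for Cpox, -0.33 to 0.25 for Fech and -0.19 to 1.38 for Ppox, and -0.23 to 0.77 for the median of the 8 genes. In IRF4/8DKO against IRF8KO they were -0.0539 to 0.75 for Alas1, -1.46 to 0.49 for Alas2, -0.10 to 0.47 for Cpox, -0.88 to 0.69 for Ppox, -0.83 to 0.13 for Urod and -0.41 to 0.52 for the median. In both together they were -0.15 to 0.14 for Cpox and -0.16 to 0.37 for Fech.

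The replicate block gave 0 called members in each comparison, with a lowest limma adjusted p of 0.0546 (Alas1 in both together, log2 fold change 0.82). Deviations of same-numbered arrays correlated at 0.211 (IRF4/8DKO and IRF8KO), 0.187 (IRF4/8DKO and WT) and 0.0411 (IRF8KO and WT). The labels give these arrays a common number and state no pairing. Whether they share more than the number was not tested. Over all probe sets the block gave 216 calls in IRF4/8DKO against WT (89 without it), 209 in IRF8KO against WT (9) and 391 in both together (179). Those counts were 0, 2 and 8 with sex as a block, 229, 136 and 355 with age as a covariate, and 13, 5 and 70 with no filter. They were 479, 1119 and 1082 without IRF8KO replicate 1, 487, 190 and 686 without IRF8KO replicate 2, and 0 in each without either WT array. With sex as a block the calls of Tfr2, Gata1, Gata2, Hbb-b2 and Car2 were lost (limma adjusted p from 0.0773 to 0.131).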
